A study of Mus musculus with 6 samples.

Results

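The guanylate-binding proteins (GBPs) and the immunity-related GTPases (IRGs) are 2 families of interferon-induced GTPases. They were followed here as 10 genes chosen by name, Gbp2, Gbp3, Gbp5, Gbp6, Gbp7, Gbp9, Irgm1, Irgm2, Igtp and Iigp1, among 30037 named genes of the expression table. Poly(A) RNA had been sequenced from L-GMP cells, the leukaemic fraction named after granulocyte-macrophage progenitors, sorted from the marrow of mice that carried acute myeloid leukaemia. The mice were 8 to 10 weeks old. A group of 3 libraries came from wild-type (WT) leukaemia and a group of 3 from leukaemia lacking Prmt6 (Prmt6-/-), the gene of an arginine methyltransferase that methylates histones. The oncogene that drove the leukaemia, the way Prmt6 was deleted, the cells in which it was lost and any transplantation are not given in the labels. Whether each library came from its own animal is not stated, so p-values reflect the spread between these libraries alone, which may be technical.

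GBPs are large GTPases that assemble on the membranes of pathogen vacuoles and on cytosolic bacteria, open them and feed their contents to inflammasomes. IRGs work beside them. The regulatory IRGs Irgm1, Irgm2 and Igtp (also called Irgm3) sit on the cell's own membranes and hold effector IRGs such as Iigp1 (Irga6) in an inactive state until a vacuole without these guards is met. Most of these genes are silent or low at rest and are switched on by interferon through transcription factors that bind the GAS element (gamma-activated site) and the ISRE (interferon-stimulated response element). In blood-forming tissue, mouse Irgm1 is known for protecting stem cells that are exposed to interferon.

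Because interferon acts on these genes through promoter elements, the letters of the elements were looked for in the 250 bases before the RefSeq transcription start (GRCm38.p6). The ISRE core was searched as GAAA, any 2 bases and GAAA, and the GAS core as TTC, any 3 bases and GAA, on both strands. The 170 bases before the start are shown for the 7 member genes with a promoter entry. Capitals mark these cores, on either strand. The windows are chr3:142620493-142620662 (plus strand) for Gbp2, chr3:142559874-142560043 (plus) for Gbp3, chr3:142496764-142496933 (plus) for Gbp5, chr3:142530166-142530335 (plus) for Gbp7, chr11:48871421-48871590 (minus) for Irgm1, chr11:58214807-58214976 (plus) for Irgm2 and chr11:58199386-58199555 (plus) for Igtp, each read 5′ to 3′ on the gene's strand.
Gbp2: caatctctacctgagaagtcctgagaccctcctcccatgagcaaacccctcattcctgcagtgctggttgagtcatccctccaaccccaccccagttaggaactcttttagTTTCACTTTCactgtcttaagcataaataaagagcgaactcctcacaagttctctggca
Gbp3: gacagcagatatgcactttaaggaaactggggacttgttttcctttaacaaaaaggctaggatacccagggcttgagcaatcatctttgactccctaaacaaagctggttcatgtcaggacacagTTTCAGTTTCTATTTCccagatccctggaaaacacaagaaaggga
Gbp5: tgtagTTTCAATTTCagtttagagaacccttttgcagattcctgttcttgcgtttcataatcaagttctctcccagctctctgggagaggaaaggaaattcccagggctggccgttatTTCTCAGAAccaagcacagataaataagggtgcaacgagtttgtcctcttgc
Gbp7: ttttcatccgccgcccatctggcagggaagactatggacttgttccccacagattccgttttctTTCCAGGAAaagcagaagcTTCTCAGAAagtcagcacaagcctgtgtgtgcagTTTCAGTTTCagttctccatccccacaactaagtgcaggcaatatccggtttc
Irgm1: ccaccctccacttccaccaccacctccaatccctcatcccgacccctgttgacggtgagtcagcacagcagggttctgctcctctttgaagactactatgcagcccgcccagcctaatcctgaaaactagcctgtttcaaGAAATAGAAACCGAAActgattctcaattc
Irgm2: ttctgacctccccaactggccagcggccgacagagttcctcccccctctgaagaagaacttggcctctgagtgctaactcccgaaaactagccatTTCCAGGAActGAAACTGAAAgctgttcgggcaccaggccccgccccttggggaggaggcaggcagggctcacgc
Igtp: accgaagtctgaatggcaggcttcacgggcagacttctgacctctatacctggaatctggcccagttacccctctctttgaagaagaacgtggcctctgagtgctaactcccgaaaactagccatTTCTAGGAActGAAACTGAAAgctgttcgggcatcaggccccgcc

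All 7 of these promoters held an ISRE core, against 2.98% of 32851 mouse promoters of the same length (978 promoters). A GAS core was found in 4 of them, those of Gbp5, Gbp7, Irgm2 and Igtp, against 7.02% of all promoters (2306). These 4 therefore held both cores, as did 0.332% of all promoters (109). Gbp3 has a second RefSeq promoter entry, in which neither core was found. No promoter is shown for Gbp6, Gbp9 or Iigp1. A match of letters is a description of the sequence and not a bound site.

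The ISRE core lay close to the start in most of these genes. Counting the base before the start as -1, it began at -59 in Gbp2, -53 in Gbp7, -64 in Irgm2 and -34 in Igtp. Gbp3 carried overlapping cores from -45 and -39 and Irgm1 from -30 and -24. Gbp5 differed, with its ISRE core at -165 and a GAS core at -52, near where the ISRE core lay in the others. A further GAS core of Gbp5 began at -245, outside the window shown. In Irgm2 and Igtp the GAS core preceded the ISRE core, at -75 and -45.

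Read in the direction that starts with GAAA, the same 10 letters, GAAACTGAAA, stood in Gbp3, Gbp7, Irgm2 and Igtp, so in genes of both families and on chromosomes 3 and 11. They occur in 0.207% of all promoters. GAAATAGAAA was shared by Gbp3 and Irgm1. The promoters of Irgm2 and Igtp resembled each other beyond the motifs. With Igtp shifted by 30 bases against Irgm2, 108 of 140 aligned bases matched (77.1%), and the longest identical run was 38 bases, ending inside the GAS core.

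**Figure D1:**
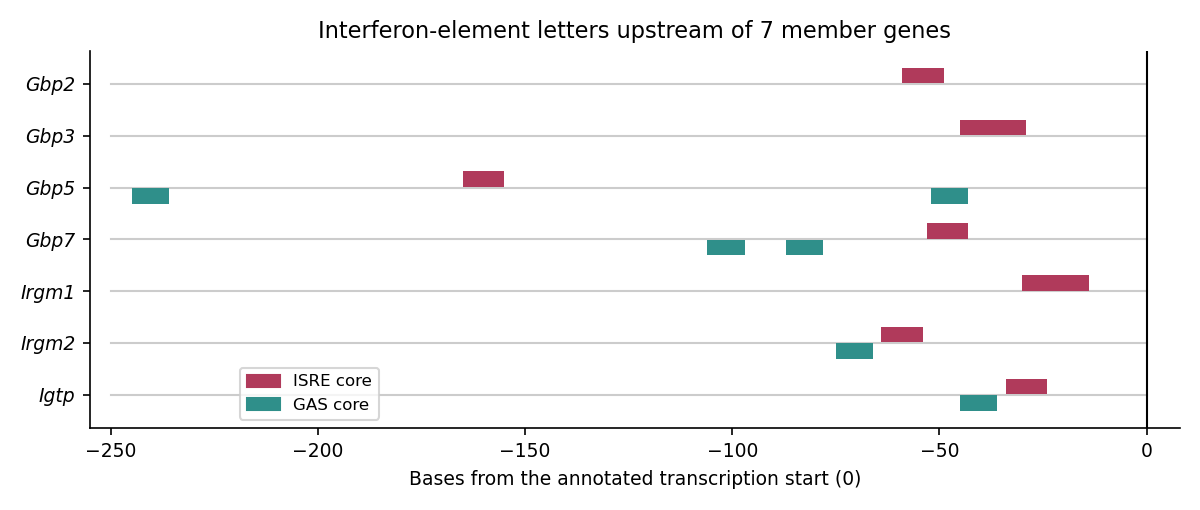
Position of the ISRE core (red, above the line) and the GAS core (green, below the line) in the 250 bases before the annotated transcription start (0) of 7 member genes. The ISRE core lies within 64 bases of the start in all but Gbp5, where it begins at -165, and a GAS core is present in Gbp5, Gbp7, Irgm2 and Igtp.

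Expression values are log2 values, normalized between libraries by the authors. This scale compresses low values, so differences of weakly expressed genes can be understated. The authors' deposited fold change is therefore given beside the values of each member. For the lowest members, Gbp6 and Iigp1, it was large in opposite directions and did not pass the authors' test. Values are not scaled by transcript length here, so levels of different genes are not compared. The deposited values are not counts, so sequencing depth is unknown. Library medians over tested genes lay between 7.72 and 7.75. Across genes, libraries of the same genotype correlated at 0.99873 to 0.99922 (Pearson's r) and libraries of different genotypes at 0.99333 to 0.99607. Prmt6 itself averaged 7.61 in WT and 5.45 in Prmt6-/-, a difference of -2.16 (limma adjusted p = 3.57e-06).

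The GTPases were lower in Prmt6-/- leukaemia. Of the 10 members, 8 had values of at least 1 in at least 3 libraries and were tested, each meeting this in both genotypes. Of these 8, 7 were called lower, 0 higher and 1, Irgm2, was not called (limma, Benjamini-Hochberg adjusted p under 0.05 over all 15454 tested genes). Among all tested genes 18% were called lower, 15% higher and so 33% in either direction. The median difference of the 8 members was -0.96, against 0.01 over all tested genes. The members were chosen with earlier results of these data known, so this contrast is a description. At least 2-fold lower on the deposited scale were Gbp2, Gbp3 and Gbp5, a size reached by 1.46% of tested genes. The authors' deposited table called 6 of the members lower and 0 higher, where 12.2% of its genes were lower. In bulk RNA, fewer cells that carry a transcript and less transcript per cell cannot be told apart.

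**Figure D2:**
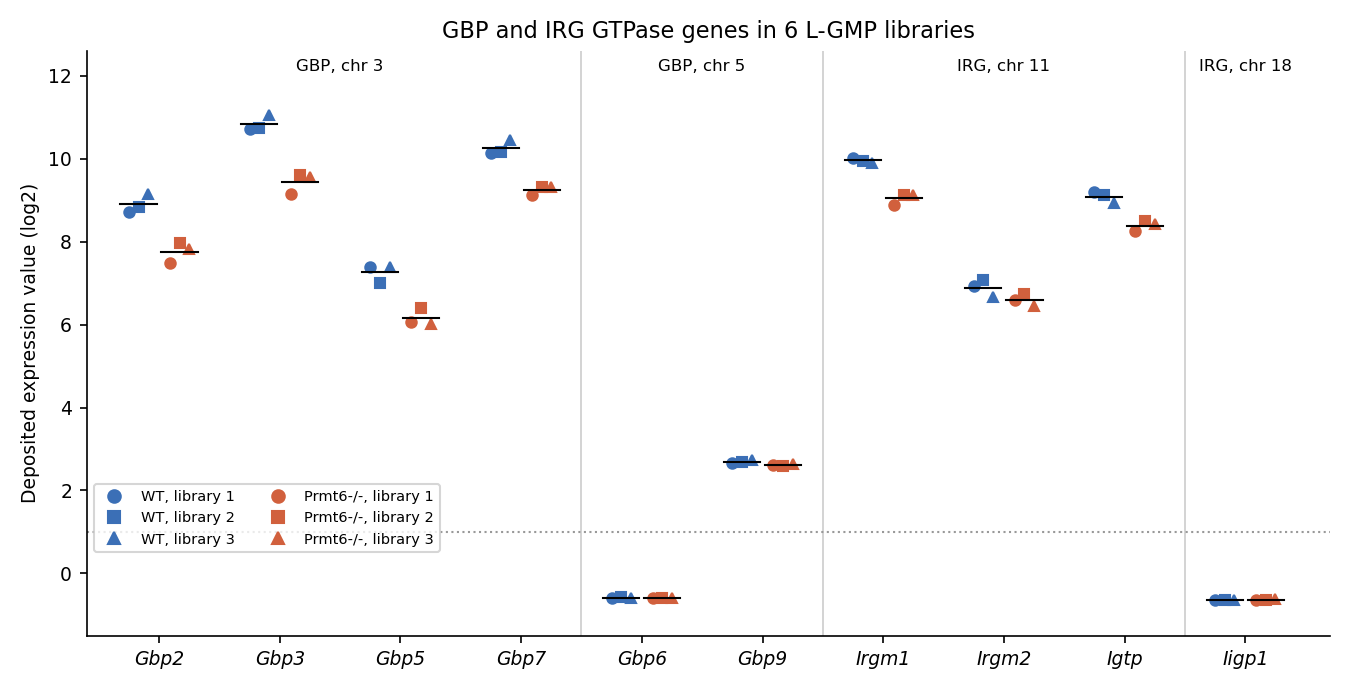
Deposited log2 expression values of the 10 member genes in each of the 6 libraries, with WT in blue, Prmt6-/- in orange, a marker shape for each library number and the group mean as a black line. The dotted line is the level of 1 used as a filter. WT and Prmt6-/- values are apart in Gbp2, Gbp3, Gbp5, Gbp7, Irgm1 and Igtp, they overlap in Irgm2, and Gbp6 and Iigp1 lie below the filter.

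On the deposited scale, the GBP genes of chromosome 3 carried the members' largest differences, whereas in the authors' deposited table the log2 fold change of the low gene Gbp9 on chromosome 5 (-1.98) was more negative than those of Gbp2, Gbp3 and Gbp7. The chromosome 3 members lie in the order Gbp5, Gbp7, Gbp3 and Gbp2. The protein-coding gene Gbp2b lies between Gbp3 and Gbp2, and no expression values were used for it. Mice lacking this cluster are sensitive to the parasite Toxoplasma. Gbp3 (ENSMUSG00000028268.14, protein-coding, chr3:142560026-142573209, GRCm38, GENCODE M21) had deposited log2 values of 10.71, 10.75 and 11.05 in WT and of 9.16, 9.60 and 9.56 in Prmt6-/-. The lowest WT library stood 1.12 above the highest Prmt6-/- library, the widest gap of any member. Group means were 10.84 ± 0.19 and 9.44 ± 0.24 (SD, n = 3), a difference of -1.40 (SE 0.128, 95% interval -1.69 to -1.11, limma adjusted p = 8.33e-05). On this scale Prmt6-/- leukaemia held 37.9% of the WT level. The authors' deposited log2 fold change was -1.65.

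Gbp2 (ENSMUSG00000028270.12, protein-coding, chr3:142620602-142638008), a GBP that carries a lipid anchor and is recruited to pathogen vacuoles, had log2 values of 8.72, 8.82 and 9.15 in WT. In Prmt6-/- they were 7.48, 7.96 and 7.83. No Prmt6-/- library reached a WT library, and Prmt6-/- library 1 was the lowest, as it was for Gbp3 and Gbp7. The means of 8.90 ± 0.23 and 7.76 ± 0.25 (SD, n = 3) differed by -1.14 (SE 0.141, 95% interval -1.46 to -0.82, limma adjusted p = 0.000382). The deposited fold change of the authors' table was -1.67 on the log2 scale.

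Gbp5 (ENSMUSG00000105504.4, protein-coding, chr3:142493978-142522344) is a lipid-anchored GBP known for promoting NLRP3 inflammasome activation. WT libraries stood at log2 values of 7.39, 6.99 and 7.39, and Prmt6-/- libraries at 6.06, 6.40 and 6.01. The groups did not overlap, with a gap of 0.59 between WT library 2 and Prmt6-/- library 2. Its mean fell from 7.26 ± 0.23 to 6.16 ± 0.21 (SD, n = 3), a difference of -1.10 (SE 0.134, 95% interval -1.40 to -0.80, limma adjusted p = 0.000351). In the authors' deposited table the log2 fold change of Gbp5 was -2.54, more negative than those of Gbp2, Gbp3 and Gbp7 there.

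Gbp7 (ENSMUSG00000040253.15, protein-coding, chr3:142530342-142550149) is linked to assembly of the phagocyte NADPH oxidase. Its log2 values were 10.14, 10.16 and 10.44 in WT and 9.12, 9.32 and 9.32 in Prmt6-/-. The 3 Prmt6-/- libraries lay within 0.21 of each other, and 0.82 separated the groups. The difference of the means, 10.25 ± 0.17 and 9.25 ± 0.12 (SD, n = 3), was -0.998 (SE 0.0946, 95% interval -1.21 to -0.78, limma adjusted p = 9.72e-05). This left 50.1% of the WT level on the deposited scale, and the authors' deposited log2 fold change was -1.23.

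The GBP members of chromosome 5 stood at low values. Of the 31-base words in Gbp9 and Gbp6 transcripts, 18.3% and 74.3% also occur in other genes, so these values are uncertain. Gbp9 (ENSMUSG00000029298.15, protein-coding, chr5:105077630-105139539) had log2 values of 2.66, 2.69 and 2.72 in WT and 2.61, 2.60 and 2.64 in Prmt6-/-. The groups did not overlap, but the gap was only 0.0204. Its difference of -0.08 (SE 0.0253, 95% interval -0.13 to -0.02) just passed the limma test (adjusted p = 0.0454), and did not pass without WT library 2 (0.103), WT library 3 (0.129), Prmt6-/- library 1 (0.107) or Prmt6-/- library 2 (0.129). The change in the authors' deposited table, -1.98 on the log2 scale (adjusted p = 0.124), was far larger than the difference on the compressed scale. Gbp6 (ENSMUSG00000104713.4, protein-coding, chr5:105270702-105293698) stood between -0.60 and -0.57 in all 6 libraries and was not tested. Its deposited log2 fold change was -2.91 (authors' test, unadjusted p = 0.393).

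Among the IRGs, the regulatory members lie on chromosome 11. Irgm1 (ENSMUSG00000046879.7, protein-coding, chr11:48861968-48871683) had log2 values of 10.03, 9.95 and 9.90 in WT and of 8.87, 9.13 and 9.12 in Prmt6-/-. The WT libraries lay within 0.12 of each other, and the lowest stood 0.77 above the highest Prmt6-/- library. The means of 9.96 ± 0.06 and 9.04 ± 0.15 (SD, n = 3) differed by -0.92 (SE 0.0801, 95% interval -1.10 to -0.74, limma adjusted p = 6.70e-05), and the authors' deposited log2 fold change was -1.15.

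Igtp (ENSMUSG00000078853.8, protein-coding, chr11:58199556-58207591), which resides on the endoplasmic reticulum and lipid droplets, stood at log2 values of 9.19, 9.12 and 8.92 in WT and 8.25, 8.49 and 8.41 in Prmt6-/-. Every Prmt6-/- library was below every WT library, by at least 0.43. Group means of 9.08 ± 0.14 and 8.39 ± 0.12 (SD, n = 3) gave a difference of -0.69 (SE 0.0902, 95% interval -0.90 to -0.49, limma adjusted p = 0.000505). This was 61.9% of the WT level, and the authors' deposited log2 fold change was -0.96.

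Irgm2 (ENSMUSG00000069874.7, protein-coding, chr11:58199618-58222782), a Golgi-associated regulator known to restrain the caspase-11 inflammasome, was the tested member without a call. Its log2 values were 6.93, 7.06 and 6.67 in WT and 6.58, 6.73 and 6.45 in Prmt6-/-. The groups overlapped, since WT library 3 lay below Prmt6-/- library 2. The difference was -0.30 (SE 0.112, 95% interval -0.55 to -0.04, limma adjusted p = 0.0714, exact two-sided permutation p = 0.2). The authors' deposited table listed it at -0.70 on the log2 scale (adjusted p = 0.0536). Without WT library 3 the difference was -0.41 and passed (limma adjusted p = 0.0165). The 2 annotations of Irgm2 and Igtp overlap on the same strand, and 15.9% of the 31-base words in Igtp transcripts also occur in Irgm2, so reads could be split between them.

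Iigp1 (ENSMUSG00000054072.12, protein-coding, chromosome 18, 60376027 to 60392634), the effector IRG that the regulators restrain, stood between -0.64 and -0.61 in all 6 libraries and was not tested. Its deposited log2 fold change was 2.79 (authors' test, unadjusted p = 0.418). The IRG members above the filter were the regulators. For each of the 7 members called lower, the exact two-sided permutation test returned p = 0.1, the minimum for groups of 3. For all 7 the Prmt6-/- libraries lay below the WT libraries, as they did for 24.4% of tested genes, while 23% had all Prmt6-/- libraries above all WT libraries and 0 members did. Ranked from the most negative of 15454 differences, Gbp3 stood at 77, Gbp2 at 145, Gbp5 at 157, Gbp7 at 227, Irgm1 at 270, Igtp at 533, Irgm2 at 1889 and Gbp9 at 4709.

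Within the WT group the members' libraries did not keep a common order. WT library 3 was the highest WT library for Gbp2, Gbp3, Gbp5 and Gbp7, although for Gbp5 it was level with WT library 1. It was the lowest for Irgm1, Irgm2 and Igtp, but the highest for the IRG genes Ifi47, Tgtp2 and 9930111J21Rik1, so the order did not follow the families. In the knockout group, Prmt6-/- library 1 was the lowest for Gbp2, Gbp3, Gbp7, Irgm1 and Igtp, and Prmt6-/- library 2 was the highest for Gbp2, Gbp3, Gbp5, Irgm1, Irgm2 and Igtp. This order was seen in the values and was not tested.

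Further GBP genes stood at low values. Of these, Gbp4 was listed at 0 in every library, Gbp8 averaged -1.97 and Gbp11 0.21 in WT, and none was tested. Of 12 other IRG genes in the table, 10 were tested, with 3 lower, 0 higher and 7 not called (median difference -0.02). Among all tested genes 18% were lower and 15% higher. Gm12250, known as Irgb10, an effector that acts with GBPs on bacterial membranes and is annotated by GENCODE M21 as a processed pseudogene, stood at 6.09, 5.93 and 5.75 in WT and 5.30, 5.50 and 5.44 in Prmt6-/-. The groups did not overlap, and it fell by 0.51 on the log2 scale (SE 0.0909, limma adjusted p = 0.00262). Its log2 fold change in the authors' deposited table was -1.96 (authors' test, adjusted p = 1.45e-05).

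The other lower IRG genes were weaker calls. 9930111J21Rik1 differed by -0.42 (limma adjusted p = 0.0183), and lost the call without WT library 1 (0.0653), WT library 3 (0.0584), Prmt6-/- library 1 (0.0536) or Prmt6-/- library 2 (0.0671). 9930111J21Rik2 differed by -0.21 (limma adjusted p = 0.0455) and lost the call in 9 of 15 alternatives. These genes are near copies, sharing 88.9% and 70.6% of their 31-base words with other genes, so their values are uncertain. Without WT library 1, Prmt6-/- library 1 or Prmt6-/- library 2, the count of these other IRG genes called lower, members not included, was 1.

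Tgtp2, the effector Irgb6, differed by -0.28 and was not called (limma adjusted p = 0.101), while the authors' deposited table gave it -1.82 with an adjusted p of 0.0136. It shares 90.5% of its 31-base words with other genes, and its twin Tgtp1 was at 0.60 in WT and not tested. Gm12185 (-0.04), Gm4951 (0.02), Gm4841 (-0.002), F830016B08Rik (0.05), Gm5431 (0.03) and Irgq (0.002) did not pass, and Irgc1 was too low to test. Ifi47, the IRG Irgd, was named after its values were seen. It stood at 7.46, 7.45 and 8.05 in WT and 6.82, 6.87 and 7.26 in Prmt6-/- and fell by 0.67 on the log2 scale (limma adjusted p = 0.0153). The call was lost without Prmt6-/- library 1 (0.0619) or library 2 (0.0602).

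Large GTPases outside these families moved both ways, with 4 of 10 tested genes lower, 2 higher and 4 not called (median difference -0.13). The shares among all tested genes were 18% lower and 15% higher. Mx1, a dynamin-like GTPase that blocks influenza virus, stood at 7.53, 7.43 and 7.34 in WT and 6.56, 6.55 and 6.72 in Prmt6-/-. It fell by 0.82 on the log2 scale (SE 0.0779, limma adjusted p = 9.69e-05). Its relative Mx2, annotated as a polymorphic pseudogene, differed by -0.13 at a low level (limma adjusted p = 0.0124). In the authors' deposited table the log2 fold change was -2.61 for Mx2 and -1.72 for Mx1. Gm1966 and Gm8995, both annotated as pseudogenes, differed by -0.50 and -0.24 (limma adjusted p = 0.00413 and 0.00903). Gm1966 shares 37.8% and Gm8995 33.9% of its 31-base words with other genes. The very large interferon-inducible GTPase Gvin1 was 0.57 higher (limma adjusted p = 0.0236) and Gm4070 0.39 higher (0.0229). These last genes share 99.7% and 98.6% of their 31-base words with other genes, and 0 of the large GTPases were called higher without Prmt6-/- library 1 or without library 2. Without WT library 1 or 2 the count was 1. The atlastins Atl1 (-0.05), Atl2 (-0.24) and Atl3 (-0.13), relatives of GBPs that fuse endoplasmic reticulum, did not pass, nor did Gm8979 (0.02).

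**Figure D3:**
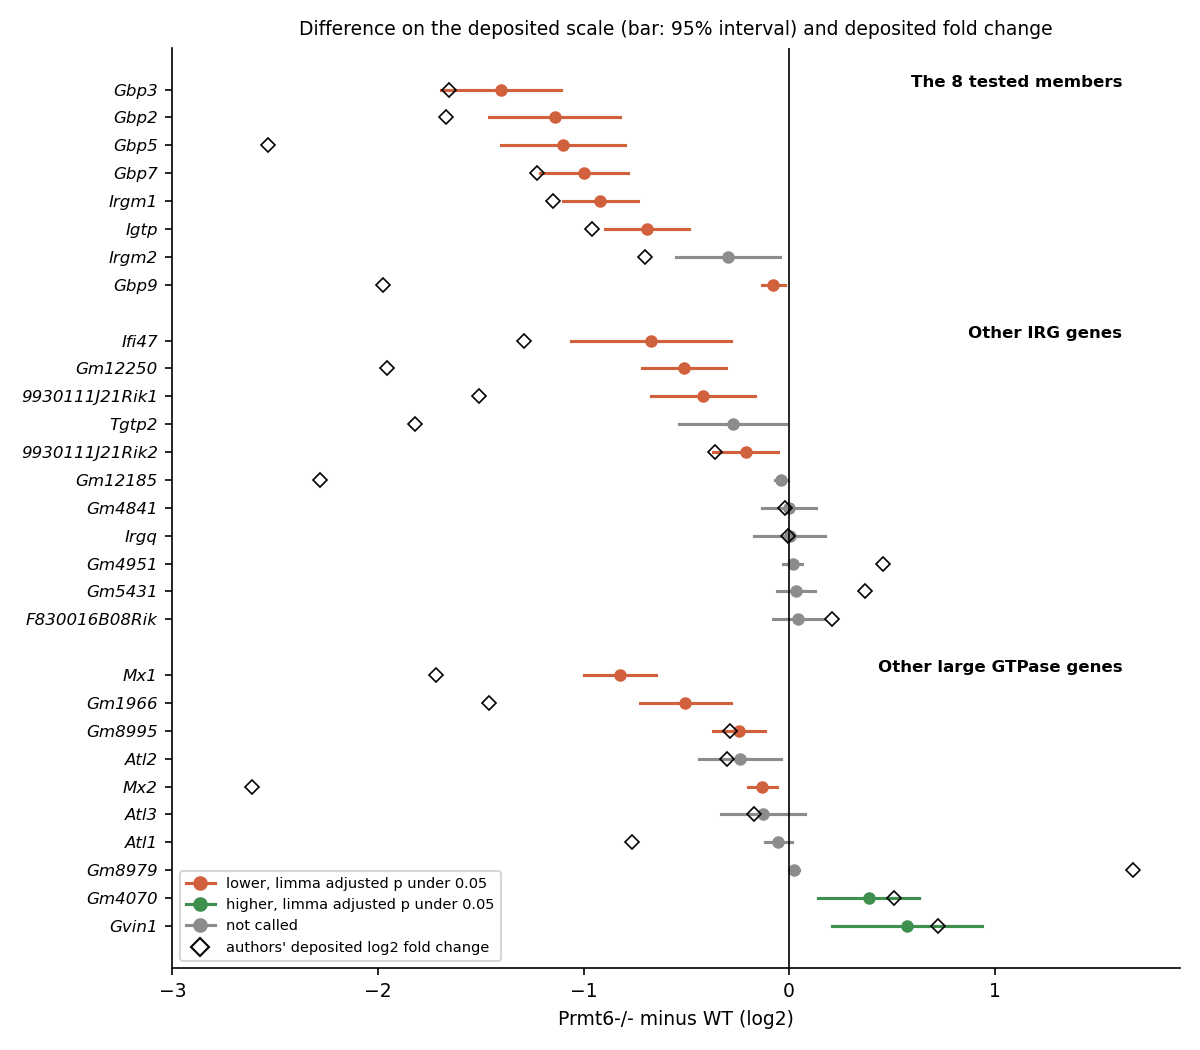
Prmt6-/- minus WT difference on the deposited log2 scale with its 95% interval, for 8 tested members, other IRG genes and other large GTPases, coloured by the limma call, with the authors' deposited log2 fold change as a diamond. The members' differences run from -1.40 in Gbp3 to -0.08 in Gbp9, and the diamonds lie further from 0 for genes of low level such as Gbp9 and Mx2.

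The genes that relay interferon signals were mostly lower as well. Of 22 listed genes, 20 were tested, with 12 lower, 2 higher and 6 not called (median difference -0.44). Over all tested genes the shares were 18% lower and 15% higher. Ifng was listed at 0 in all 6 libraries and Ifnb1 stood at -1.49, so neither ligand was tested. The receptor chains for interferon-gamma, Ifngr1 and Ifngr2, fell by 0.37 and 0.73 on the log2 scale (limma adjusted p = 0.00617 and 0.000690). Those for type I interferon, Ifnar1 and Ifnar2, fell by 0.53 and 0.84 (limma adjusted p = 0.000695 and 9.78e-05). All 4 receptor chains were therefore lower.

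Below the receptors the genes differed. Stat2, a factor of type I interferon signalling, did not pass, with a difference of 0.02 (limma adjusted p = 0.787). The kinase Jak1 was 0.20 higher (limma adjusted p = 0.0331), a call lost on leaving out WT library 1 (0.102), WT library 2 (0.118) or any of the Prmt6-/- libraries (0.0592 to 0.0965), where the count of higher genes was 1. Jak2 (-0.13) and Tyk2 (0.22) did not pass. The phosphatase Ptpn6 fell by 1.03 on the log2 scale (limma adjusted p = 2.72e-05). Socs3, an inhibitor of cytokine receptors, was 1.45 higher (limma adjusted p = 1.72e-05).

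Interferon regulatory factors were named after their values were seen. Irf9, a DNA-binding partner of Stat2, fell by 1.06 on the log2 scale (limma adjusted p = 0.000507), Irf8, a myeloid factor, by 0.70 (0.000175), Irf2 by 0.59 (0.000564) and Irf1, which is needed for Gbp induction in mice, by 0.50 (0.000685). Usp18, which dampens type I interferon receptor signalling and was also named after its value was seen, fell by 0.88 (0.00102).

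Genes induced by interferon alongside the GTPases were mostly lower too, where 18% of all tested genes were lower and 15% higher. In an interferon-gamma list, 14 of 22 tested genes were lower and 0 higher (median -0.30). The GTPase-unrelated enzyme Irg1, now named Acod1 and the source of itaconate, fell by 1.70 on the log2 scale (limma adjusted p = 0.000274), the protease inhibitor Serpina3g fell by 1.58 (0.000424), and the immunoproteasome subunits Psmb10 and Psmb8 by 0.47 (0.000196) and 0.39 (0.000220). Of the type I interferon-induced genes 21 of 24 were lower and 0 higher (median -0.50). Trim30a and the antiviral gene Rsad2 (viperin) fell by 1.15 and 0.76 on the log2 scale (limma adjusted p = 9.69e-05 and 0.000122).

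The machinery that GBPs and IRGs act with was described from 3 lists. Inflammasome genes were lower in 10 of 14 cases and higher in 0 (median -0.53), against 18% lower and 15% higher among all tested genes. The pore protein Gsdmd fell by 0.89 on the log2 scale (limma adjusted p = 4.78e-05), the membrane-rupture protein Ninj1 by 0.67 (8.08e-05), the DNA sensor Aim2 by 0.86 (0.000118) and the flagellin inflammasome gene Nlrc4 by 0.83 (0.000207). Casp4, the mouse caspase-11 gene that senses lipopolysaccharide exposed by GBPs, was named after its value was seen and fell by 0.32 (0.00867).

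Genes of the ATG8 conjugation system, which directs GBPs and IRGs to vacuoles, and of vacuole tagging were split. Of 19 tested, 7 were lower, 2 higher and 10 not called (median -0.09), against 18% lower and 15% higher among all tested genes. The ubiquitin-binding adaptor Sqstm1 fell by 0.84 on the log2 scale (limma adjusted p = 2.80e-05), the ATG8 protein gene Gabarap by 0.63 (4.46e-05), the conjugating enzyme Atg10 by 0.46 (0.000735) and the ubiquitin ligase Traf6 by 0.46 (0.00256). Atg5, which takes part in the ATG8 lipid-conjugating complex, was 0.26 higher (0.00491) and the conjugating enzyme Atg3 0.20 higher (0.0187). Both were named after their values were seen. The Atg3 call was lost without WT library 1 (0.0591), Prmt6-/- library 1 (0.0601) or Prmt6-/- library 2 (0.0529), where the count of higher genes was 1.

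Enzymes that attach and trim the lipid anchors of GBPs were listed with GDP-dissociation inhibitors that bind prenylated GTPases. Of these 12 genes, 5 were lower and 0 higher (median -0.14), against 18% lower and 15% higher among all tested genes. The CaaX protease Rce1 fell by 0.38 on the log2 scale (limma adjusted p = 0.0105), and the inhibitors Arhgdib and Arhgdia by 0.45 (0.000121) and 0.21 (0.00435). After quantile normalization 2 genes of this list were called lower and 1 higher, and Arhgdia did not pass (adjusted p = 0.247).

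**Figure D4:**
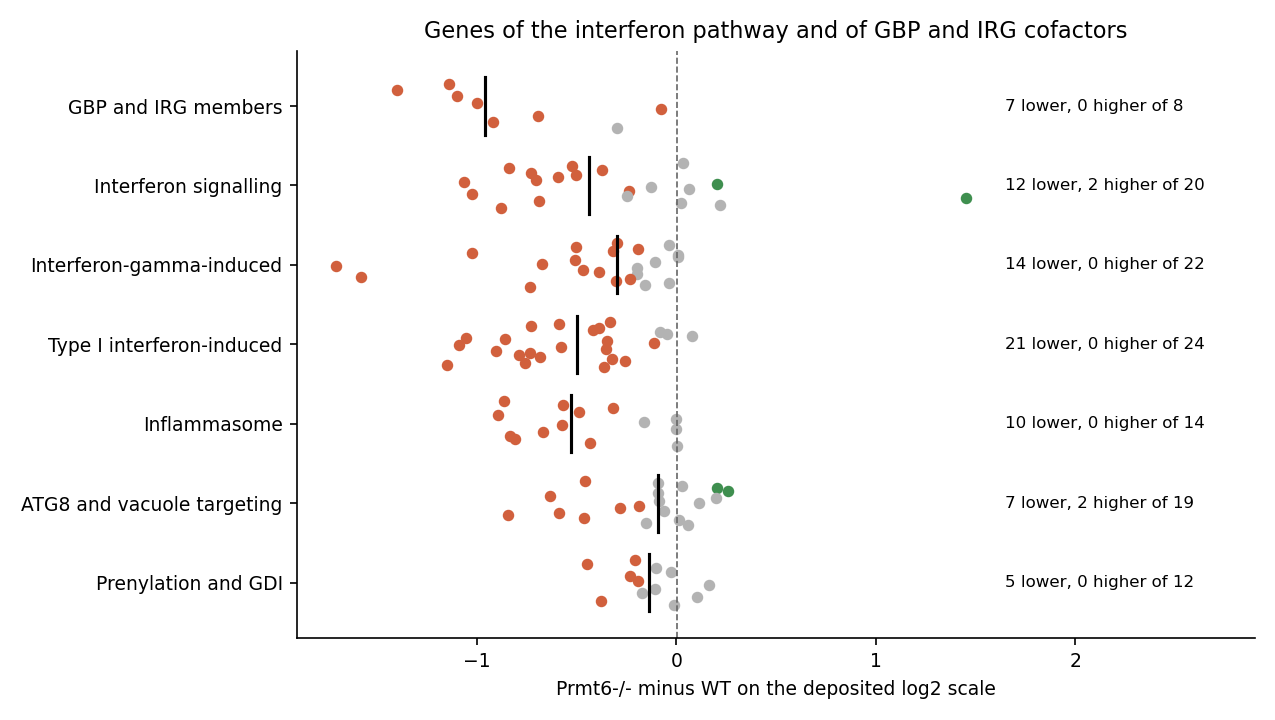
Prmt6-/- minus WT difference on the deposited log2 scale for each tested gene of 7 lists, in orange where called lower, green where called higher and grey where not called, with the list's median as a black bar and the median of all tested genes as a dashed line. The GTPase members have a median of -0.96, the type I interferon-induced list one of -0.50 and the ATG8 and vacuole list one of -0.09.

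The members sit in clusters, so the genes around them were examined. Within 300000 bases of a member the table held 53 genes outside the families, of which 28 were tested. Of these, 4 were lower, 4 higher and 20 not called, where 18% of all tested genes were lower and 15% higher. Beside the chromosome 3 GBP cluster, the transcription factor gene Gtf2b fell by 0.31 on the log2 scale (limma adjusted p = 0.00237), while Pdlim5 and Pkn2, each 0.12 higher, did not pass. Near the Gbp genes of chromosome 5, Lrrc8b was 0.22 higher (0.0254).

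On chromosome 11 calls went both ways. 4930438A08Rik fell by 0.84 on the log2 scale (limma adjusted p = 0.00238), Cnot8 by 0.30 (0.00361) and Psme2b by 0.23 (0.0232). Btnl9 was 0.61 higher (0.000606), Zfp672 0.45 higher (0.000760) and Sh3bp5l 0.29 higher (0.0108). On chromosome 18, 0 of 6 tested neighbours of Iigp1 were called. The chromosome 3 GBP genes lie on the same chromosome as Prmt6, 32.2 to 32.4 Mb from it. Of 711 tested genes on chromosome 3, 110 were lower (15.5%) and 113 higher.

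**Figure D5:**
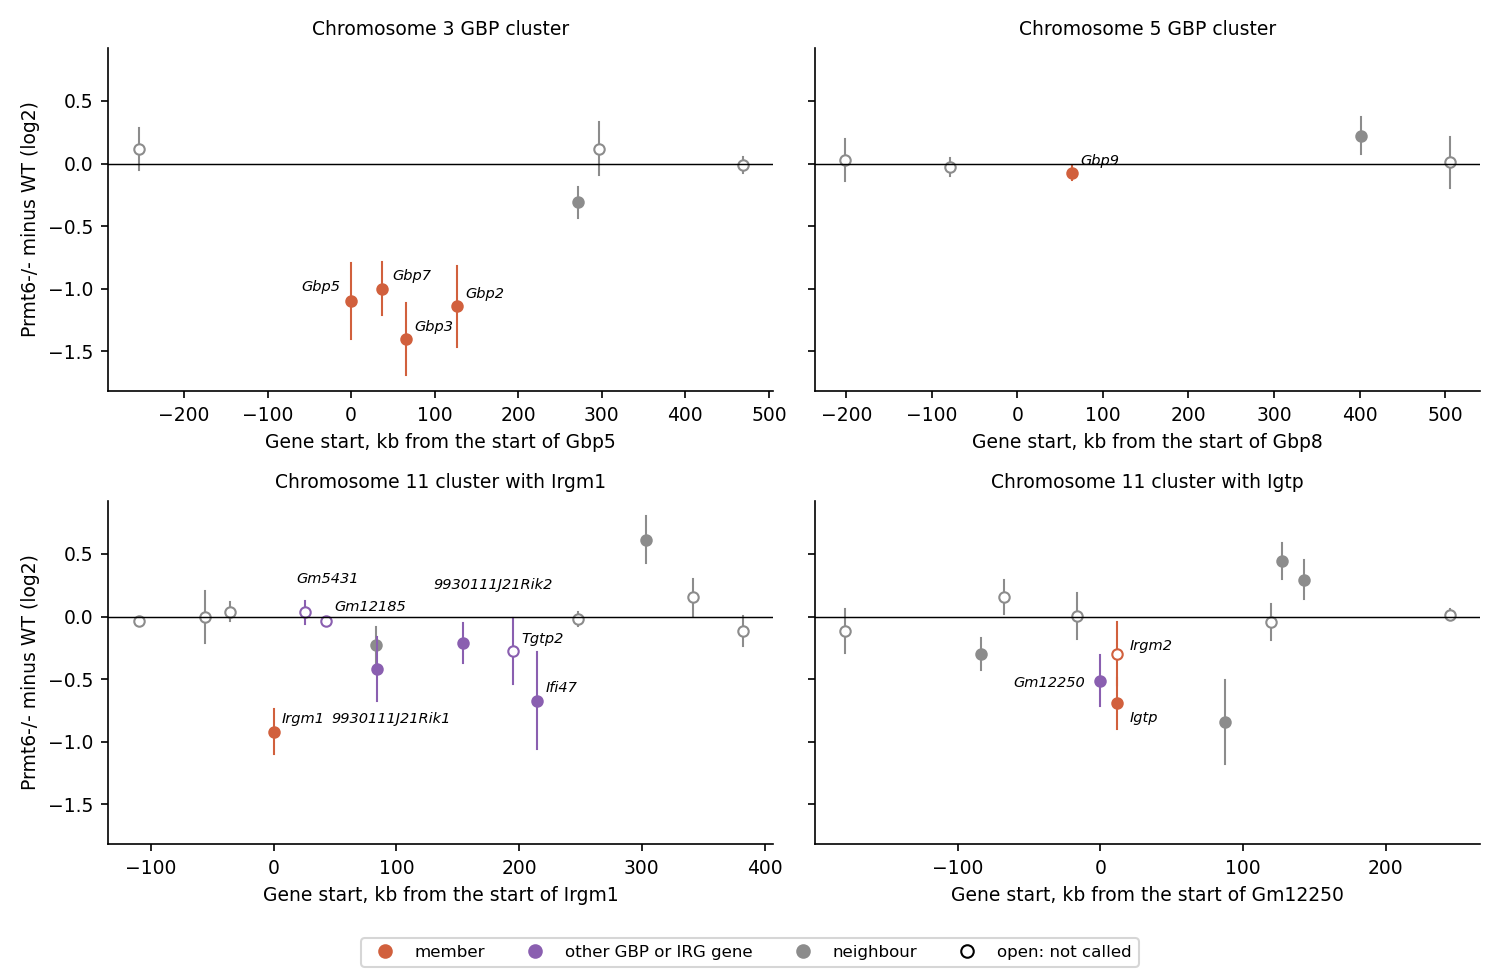
Prmt6-/- minus WT difference on the deposited log2 scale, with 95% intervals, against the start of each tested gene in kb from the start of the named gene, for the clusters of chromosomes 3, 5 and 11. Filled points were called. The 4 chromosome 3 GBP members lie between -1.40 and -0.998, and their neighbours between -0.31 and 0.12.

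Markers of the sorted fraction and of other cells were read beside these results, where 18% of all tested genes were lower and 15% higher. Of 11 progenitor and granule markers, 10 stood at 5 or more in every library. Among them 2, Elane and Ctsg, were called higher and 0 lower, and their summed level on the log2 scale was 17.54 to 17.99 in WT and 18.43 to 18.59 in Prmt6-/-. Elane (from 16.56 to 18.01) was the largest single term of this sum, beside Mpo, which averaged 15.58 in WT and 14.48 in Prmt6-/-. The median difference of the list was 0.02, and Mpo (-1.11, limma adjusted p = 0.139) and Kit (-0.29, 0.0961) did not pass. The summed level of 8 macrophage markers was lower in Prmt6-/-, at 11.27 to 11.43 against 12.42 to 12.84. Of these, 2 were called lower, the adhesion molecule Vcam1 (-2.17) and Emr1, now named Adgre1 (-0.33). Vcam1 (from 12.03 to 9.86) carried most of the fall in this sum. The other 5 of 7 tested macrophage markers were not called, and the median difference of the list was 0.002. The macrophage genes C1qa, C1qb and C1qc averaged 1.09, 2.77 and 2.82 in WT and Marco -1.49.

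Of 8 T and NK cell markers, the cells that make most interferon-gamma, Ifng and Gzma were listed at 0, Cd3e averaged -1.97 in both genotypes, and 2, Cd3d and Tbx21, were called higher. Their summed log2 level was 5.65 to 5.68 in WT and 5.94 to 6.09 in Prmt6-/-. Of 6 dendritic cell markers 3 were lower, Xcr1 (-0.35), Ccr7 (-0.41) and Zbtb46 (-0.25), with sums of 10.59 to 10.83 in WT and 10.58 to 10.73 in Prmt6-/-. Summed B cell markers stood at 4.06 to 4.11 and 3.98 to 4.08, with 0 called. Erythroid markers had sums of 5.47 to 5.50 and 5.54 to 5.66, with Klf1 called higher, and endothelial and stromal markers 11.17 to 11.49 and 10.71 to 11.05, with Pecam1 called lower. Pecam1 (from 11.28 to 10.88) makes up most of the endothelial and stromal sum, and the median difference of that list was 0.02. Cd3d likewise makes up most of the T and NK cell sum, and Flt3 most of the dendritic cell sum. The part of these marker differences in the GTPase results was not tested.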

How the data were processed

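Poly(A) RNA of 6 L-GMP libraries was analysed, 3 per genotype, grouped by the labels. Trim Galore, kallisto and HOMER (no versions) and the build GRCm38 are listed in the submitters' processing notes. The expression values are log2 values normalized by the authors with HOMER's differential-expression command, per the file headers. They span -1.97 to 18, and no transformation is given. A fold change (log2), p-value and adjusted p-value for each gene, from the authors' own test, are also in the deposited table. Of 30038 rows, 1 names no gene (0.00333%) and was left out, and 7932 genes are listed at 0 in every library. No 2 libraries held identical values (0 pairs).

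A moderated test of the genotypes was run on the deposited log2 values with limma 3.58.1 (R 4.3.3), without covariates and with a mean-variance trend. It was two-sided, with Benjamini-Hochberg adjustment over all tested genes and a threshold of 0.05, for genes at 1 or more in at least 3 libraries. Differences are Prmt6-/- minus WT, SE is limma's, and 95% intervals are unadjusted. The members and the gene lists were chosen with earlier results of these data known. Named were all members, the other family and large GTPase genes, up to 4 genes of smallest p per list, the receptors, kinases and STATs, and neighbours within 300000 bases. Some genes that this rule would name are not reported here. Other genes are marked as named after their values were seen. Lists were described by counts and medians and not tested as sets. Positions and shared words of 31 bases came from GENCODE M21 (GRCm38), promoters from RefSeq (GRCm38.p6), for which 7 of 10 members matched, read with Python 3.11.15 and pandas 2.3.3. Figures were drawn with matplotlib 3.10.9.

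On simulated data with 15454 genes, planted decreases of 0.25, 0.5, 1 and 2 were called for 48%, 76%, 100% and 98% of 50 genes each, and 7 of 15254 unchanged genes were called. The simulated noise was independent, and decreases were planted in full at every level, without compression of low genes. Far fewer genes were changed than the 33% called in the data, so these rates need not hold there. Alternatives were 3 other scalings, 2 other filters, a pseudocount of 1 on linear values, limma without trend, the authors' test, a replicate block and each library left out.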

Additional observations from a re-analysis of the deposited data

How the results depend on the processing

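Under 15 alternatives 6 to 8 members were called lower and 0 higher, and Gbp2, Gbp3, Gbp5, Gbp7, Irgm1 and Igtp were called in all of them. Leaving out a library gave 6 to 7 lower members and 3891 to 4598 called genes, against 5102 with all libraries, of which 2192 to 2583 were lower, against 2778. Of 139 listed genes, 0 that were called changed direction. Gbp9 was also not called after median centring (adjusted p = 0.120), with no filter (0.0965) or without the trend (0.128), and was not tested under the stricter filter. Irgm2 was called after intensity-dependent centring (0.0492). Quantile normalization turned the majority of called genes, with 2378 lower and 2827 higher, while 7 members were still lower. The labels name no animal or batch shared by same-numbered libraries, so the main test did not pair them. Deviations of same-numbered libraries from their group means correlated at 0.0948, 0.0727 and 0.172, and every library correlated best with its own number. Whether the numbers mark pairs is therefore not known, and the call of Irgm2 depends on it. With a replicate block 8 members were called lower, Irgm2 included (adjusted p = 0.0142), among 5074 called genes, of which 2800 were lower. Depth is unknown, and the compressed scale limits what can be seen for genes of low level such as Gbp6, Gbp9 and Iigp1.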
